A study of Mus musculus with 10 samples.

Results

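A set of 10 genes of the circadian clock were followed in splenic type 2 conventional dendritic cells (cDC2, a subset specialised in activating helper T cells): Ciart, Per1, Per2, Per3, Cry1, Cry2, Nr1d1, Nr1d2, Dbp and Tef. They were taken by symbol from the 19938 genes with values, and all 10 of 10 were found. Each gene is represented by the probe set with the highest mean log2 intensity over the 10 arrays. The cells were sorted from CD11c-enriched spleen digests, and each array measured one sorted sample. The groups were CD11c-Cre+ Notch2f/f mice (Notch2-11cKO in the labels, Notch2KO here) given sheep erythrocytes (SRBC, used as an antigen) intraperitoneally 24 hours earlier at 200000000 cells (3 arrays), untreated Notch2KO mice (2 arrays), WT mice given the same SRBC dose 24 hours earlier (3 arrays) and untreated WT mice (2 arrays). CD11c-Cre acts in cells that express the integrin CD11c, which include dendritic cells and some macrophages. Age and sex are not given in the labels used here, nor is whether WT mice carried Cre or whether replicates came from separate mice, so p-values measure only the spread between these arrays, which may be technical. The labels also give no hour of harvest, so hour of sampling and group cannot be told apart.

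The set was chosen by a measured value: Ciart had been noticed for its fall in the WT response to SRBC, and the other 9 were added as clock genes. All values of the 10 genes in the WT response, and every value of Ciart that uses a WT array, are therefore given as description without a test; genes outside the set were tested in every comparison. Ciart was tested only in the Notch2KO response, whose arrays were not part of that observation. The spread in the fit and the choice of probe set did use the WT arrays, so this test is not fully independent of it. With only the 2 Notch2KO groups in the fit, Ciart's difference was -1.89 (limma adjusted p = 0.0412).

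In the mammalian clock, the activators CLOCK and BMAL1 (gene Arntl) bind E-box sequences and drive the genes of their own repressors, the period (Per) and cryptochrome (Cry) proteins. CIART, also called CHRONO, is a further repressor that binds BMAL1. A second loop runs through the nuclear receptors REV-ERB alpha and beta (Nr1d1 and Nr1d2), which repress Arntl through elements shared with the activating ROR receptors, and DBP and TEF are output factors that activate genes through D-box sequences. Leukocytes, dendritic cells among them, carry this clock.

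RefSeq promoter windows (GRCm38.p6, 250 bases before to 50 after a start site) matched 9 of the 10 genes with 11 windows. Of these, 4 windows are shown, 5′ to 3′ on the gene's strand, because they hold the E-boxes of Ciart and, for contrast, those of Cry1 and Per1 and the window of Nr1d1, the gene that differed between untreated genotypes. Capitals mark matches on either strand to the E-box CACGTG, the variant CACGTT, the D-boxes TTATGTAA and TTATGCAA, the ROR and REV-ERB core AGGTCA, the cAMP element TGACGTCA or the heat shock element GAANNTTC. The windows lie at chr3:95882179-95882478 (Ciart, minus strand), chr10:85185005-85185304 (Cry1, minus strand), chr11:69098699-69098998 (Per1, plus strand) and chr11:98775328-98775627 (Nr1d1, minus strand).
Ciart: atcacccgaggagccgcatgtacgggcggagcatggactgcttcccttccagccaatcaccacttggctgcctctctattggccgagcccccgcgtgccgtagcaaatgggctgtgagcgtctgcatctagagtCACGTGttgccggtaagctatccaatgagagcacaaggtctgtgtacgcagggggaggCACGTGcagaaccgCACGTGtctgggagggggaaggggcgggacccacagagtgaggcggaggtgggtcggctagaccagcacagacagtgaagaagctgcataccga
Cry1: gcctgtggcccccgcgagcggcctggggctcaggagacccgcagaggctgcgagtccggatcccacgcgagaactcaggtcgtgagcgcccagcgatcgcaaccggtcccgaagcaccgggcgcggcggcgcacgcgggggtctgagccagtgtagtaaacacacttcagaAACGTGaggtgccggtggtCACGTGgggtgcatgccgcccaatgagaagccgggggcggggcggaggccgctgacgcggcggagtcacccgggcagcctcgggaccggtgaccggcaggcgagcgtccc
Per1: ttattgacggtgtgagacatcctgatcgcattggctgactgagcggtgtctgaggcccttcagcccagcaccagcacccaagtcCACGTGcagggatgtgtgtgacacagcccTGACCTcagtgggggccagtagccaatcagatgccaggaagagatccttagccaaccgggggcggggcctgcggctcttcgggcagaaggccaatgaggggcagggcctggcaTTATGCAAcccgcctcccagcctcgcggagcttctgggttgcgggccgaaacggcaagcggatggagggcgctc
Nr1d1: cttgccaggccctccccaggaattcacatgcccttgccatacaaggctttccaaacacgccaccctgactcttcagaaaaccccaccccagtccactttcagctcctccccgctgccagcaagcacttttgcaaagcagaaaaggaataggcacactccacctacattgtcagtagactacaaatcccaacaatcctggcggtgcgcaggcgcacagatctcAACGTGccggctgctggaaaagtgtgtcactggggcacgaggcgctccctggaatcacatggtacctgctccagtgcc

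The Ciart window held 3 E-boxes, starting 116, 58 and 44 bases before the start site. At least 1 E-box was found in 7.15% of all 32851 promoter windows, and 3 or more in 0.0883% (29 windows). The other members with an E-box were Cry1 (1, at 60 bases), the upstream window of Per1 (1, at 166 bases) and both windows of Tef. The variant CACGTT (4.68% of windows) was found in Cry1, Cry2 and Nr1d1, the D-box TTATGTAA (0.938%) at 2 places in Per3, TTATGCAA (0.743%) in Per1 and the ROR and REV-ERB core (16.3%) in Per1 and Nr1d2. Neither the cAMP element (1.79%) nor the heat shock element (7.86%) was found in a member's window. No matches overlapped one another. These are matches of letters in short windows, not measured sites.

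Ciart carried much the largest differences among the 10 genes after SRBC. On its first probe set (10500272), log2 intensity was 4.27, 4.78 and 3.97 in Notch2KO SRBC, against 6.37 and 6.07 in Notch2KO untreated. In linear intensity these were 19.3, 27.4 and 15.6 against 82.9 and 67.3. Every Notch2KO SRBC array was below both untreated arrays, a separation in either direction that 28.3% of all genes showed in this comparison.

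Ciart fell in Notch2KO cells by 1.89 ± 0.25 on the log2 scale (SE of the fit, 3.69-fold lower, 3 against 2 arrays, 95% interval -2.43 to -1.34, limma adjusted p = 0.0186 over all genes). It was the 1 member of 10 past the threshold of 0.05 in this comparison, where 0.306% of all genes passed, 0.14% as rises and 0.166% as falls. Leaving out 1 array ended the call for Notch2KO SRBC 1 (-1.85, adjusted p = 0.052), Notch2KO untreated 1 (-1.73, adjusted p = 0.211) and Notch2KO untreated 2 (-2.04, adjusted p = 0.0716). Each array averages all sorted cells, so fewer cells expressing a gene and less RNA per cell cannot be told apart here or below.

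In WT cells, where the gene had been noticed, Ciart had log2 values of 5.14, 4.57 and 4.53 in WT SRBC, against 7.55 and 7.63 in WT untreated. The difference was -2.84 ± 0.25 (7.16-fold lower), with no overlap between the groups, as for 33.5% of all genes in this comparison. The order of its group means, WT untreated (7.59), Notch2KO untreated (6.22), WT SRBC (4.75) and Notch2KO SRBC (4.34), was separated by non-overlapping arrays at each step except the last. The Notch2KO response minus the WT response was 0.95 ± 0.35, a smaller fall in Notch2KO by that probe set.

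A second probe set of Ciart (10373452), to which the platform annotation gives the same accessions, showed the SRBC difference as well. It had 4.47, 4.15 and 3.75 in Notch2KO SRBC, against 7.22 and 6.54 in Notch2KO untreated. With every probe set tested by itself (28853 of them), it fell by 2.76 ± 0.26 on the log2 scale in the Notch2KO response (6.77-fold lower, limma adjusted p = 0.00467), beside 1.89 ± 0.25 for the first probe set (limma adjusted p = 0.0282). Its WT values were 3.61, 3.58 and 4.18 in WT SRBC, against 7.03 and 6.98 in WT untreated, a difference of -3.22 ± 0.26.

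The probe sets disagreed on genotype. Between untreated mice the first gave -1.36 ± 0.28 (95% interval -1.98 to -0.75, 6.37 and 6.07 in Notch2KO against 7.55 and 7.63 in WT). The second gave -0.12 ± 0.29 (95% interval -0.76 to 0.52, 7.22 and 6.54 in Notch2KO against 7.03 and 6.98 in WT). Thus the fall after SRBC was present on both probe sets, while a lower untreated level in Notch2KO was present on the first alone. After SRBC the genotypes differed by -0.41 ± 0.23 on the first and 0.33 ± 0.24 on the second, with intervals that include 0. The Notch2KO response minus the WT response was 0.95 ± 0.36 on the first in this fit. On the second it was 0.46 ± 0.37, with an interval of -0.37 to 1.28, so a smaller fall in Notch2KO was not resolved there.

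**Figure D1:**
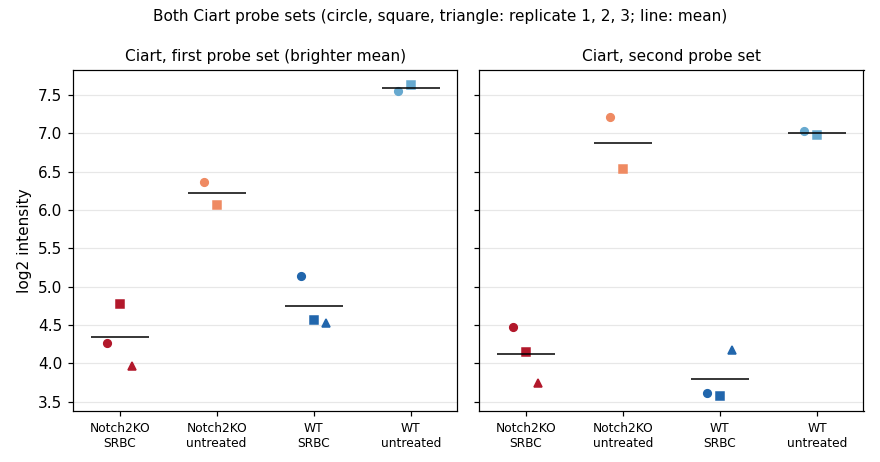
Log2 intensity (y axis) of both Ciart probe sets on each array, by group; symbols mark replicates 1 to 3 and lines the group means. All 6 SRBC arrays lie below all 4 untreated arrays on both probe sets, and untreated Notch2KO lies apart from untreated WT on the first only.

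Of the period genes, which encode the repressors that pair with the cryptochromes, Per1 alone had clearly lower means after SRBC. Per1 had 8.89, 8.87 and 7.36 in Notch2KO SRBC, against 9.65 and 9.42 in Notch2KO untreated. The groups did not overlap, as for 28.3% of all genes, but the difference of -1.16 ± 0.42 (95% interval -2.08 to -0.24) did not pass (limma adjusted p = 0.357). Notch2KO SRBC 3 is the low array of the group, and without it the difference was -0.65 (adjusted p = 0.436). WT cells had 8.98, 8.26 and 8.05 in WT SRBC, against 9.68 and 9.61 in WT untreated, a difference of -1.22 ± 0.42. The genotypes lay close in the untreated state (-0.11 ± 0.46, limma adjusted p = 0.971) and after SRBC (-0.05 ± 0.37, limma adjusted p = 0.97), the second with an interval of -0.87 to 0.77.

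Per2 and Per3 had small differences, none past the threshold where tested. Per2 differed by 0.27 ± 0.17 in the Notch2KO response and by -0.23 ± 0.17 in the WT response. Its largest difference was between untreated genotypes, with 5.29 and 5.64 in Notch2KO against 6.06 and 6.03 in WT (-0.58 ± 0.19, limma adjusted p = 0.137). Per3 differed by 0.21 ± 0.16 in the Notch2KO response, with an interval of -0.14 to 0.57.

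No cryptochrome difference passed the threshold where tested, with Cry1 between 5.98 and 6.97 over all arrays. Cry1 had 6.35, 6.45 and 6.78 in Notch2KO SRBC, against 5.98 and 6.25 in Notch2KO untreated, and 6.97, 6.91 and 6.88 in WT SRBC, against 6.53 and 6.56 in WT untreated. The SRBC arrays were thus above the untreated arrays in each genotype, by 0.41 ± 0.18 in Notch2KO (limma adjusted p = 0.479) and 0.38 ± 0.18 in WT, opposite in sign to Ciart and Per1. Of all genes 28.3% had non-overlapping groups in the Notch2KO response and 33.5% in the WT response. Notch2KO was lower than WT in Cry1 at both states, by -0.43 ± 0.20 untreated (limma adjusted p = 0.348) and -0.40 ± 0.16 after SRBC (limma adjusted p = 0.218), and neither passed. Cry2, the second cryptochrome, differed by -0.03 ± 0.17 in the Notch2KO response (95% interval -0.41 to 0.35) and by 0.11 ± 0.16 between genotypes after SRBC.

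Nr1d1, encoding REV-ERB alpha, was the one of the 9 members tested between untreated genotypes that passed the threshold. It had 6.42 and 5.99 in Notch2KO untreated, against 4.94 and 4.83 in WT untreated. The arrays did not overlap, as for 48.8% of all genes in this comparison. Nr1d1 was higher in Notch2KO by 1.32 ± 0.29 (2.5-fold, 95% interval 0.67 to 1.97, limma adjusted p = 0.0243, n = 2 and 2). In this comparison 5.11% of all genes passed, 2.95% as higher and 2.16% as lower in Notch2KO. Without any one of the 4 untreated arrays the call for Nr1d1 was lost, at adjusted p = 0.126 and 0.165 without WT untreated 1 and 2, and 0.213 and 0.0548 without Notch2KO untreated 1 and 2, with differences between 1.10 and 1.54.

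After SRBC, Nr1d1 had 5.42, 5.74 and 4.97 in Notch2KO, against 5.04, 5.29 and 4.45 in WT. These overlap, and the difference of 0.45 ± 0.24 did not pass (limma adjusted p = 0.382). Within Notch2KO the SRBC arrays were all below the untreated arrays (28.3% of all genes did not overlap there), by -0.83 ± 0.27 (limma adjusted p = 0.29), while WT gave 0.04 ± 0.27. The Notch2KO response minus the WT response was -0.87 ± 0.38 (limma adjusted p = 0.752). Its partner Nr1d2 had group means between 6.72 and 6.94 and differed by -0.22 ± 0.27 in the Notch2KO response and 0.09 ± 0.29 between the genotypes untreated (limma adjusted p = 0.846 and 0.958).

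The output factors had small differences. Dbp, whose transcript is among the most strongly cycling in many tissues, had 5.33, 5.50 and 5.49 in Notch2KO SRBC, against 5.86 and 5.79 in Notch2KO untreated (-0.39 ± 0.16, limma adjusted p = 0.448). WT arrays had 5.60, 5.68 and 5.28 in WT SRBC, against 5.74 and 5.90 in WT untreated (-0.30 ± 0.16). Dbp did not separate the genotypes, at 0.00 ± 0.18 untreated with an interval of -0.38 to 0.39. Tef differed by 0.36 ± 0.20 in the Notch2KO response and -0.42 ± 0.22 between the genotypes untreated (limma adjusted p = 0.595 and 0.423).

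**Figure D2:**
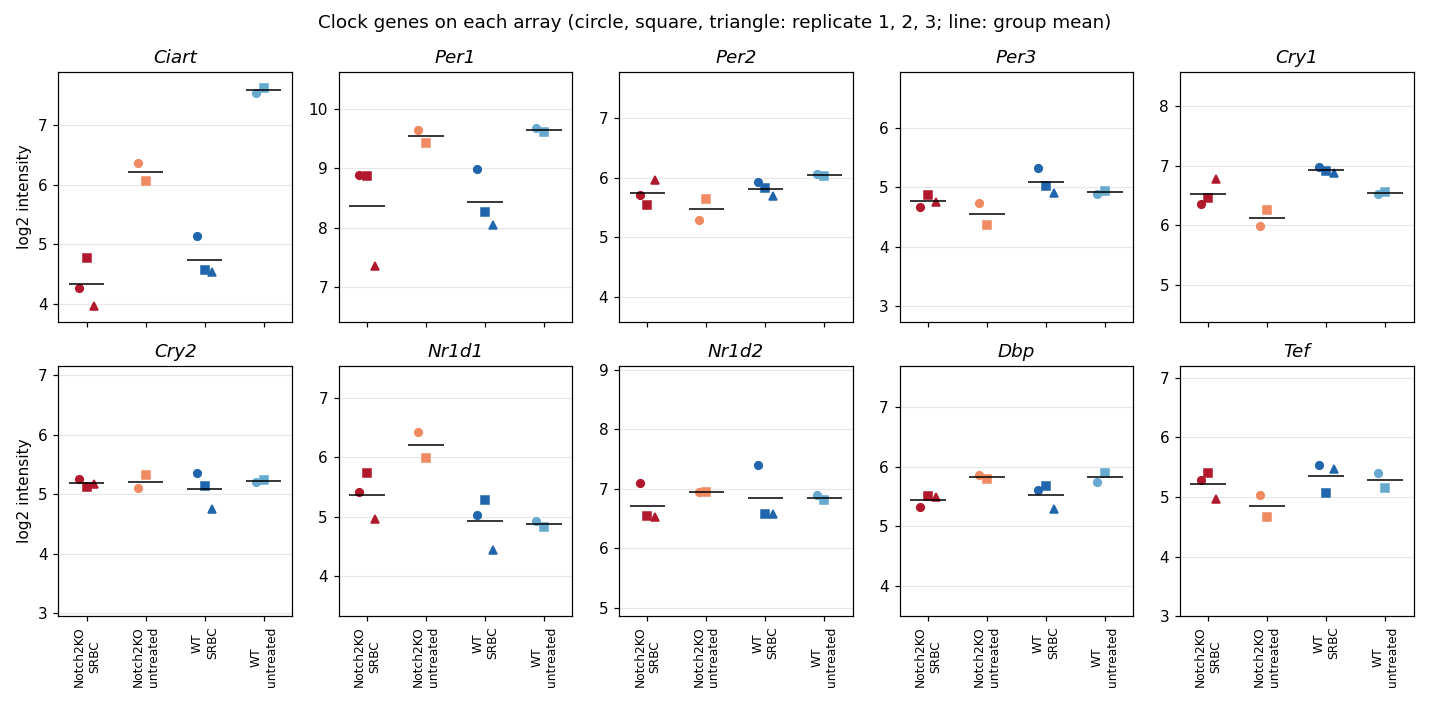
Log2 intensity (y axis, the same span of 4.2 in each panel) of the 10 genes on each array by group; symbols mark replicates 1 to 3 and lines the group means. Ciart spans the widest range, Per1 is lower on all SRBC arrays and Nr1d1 is highest on the 2 untreated Notch2KO arrays, while the other panels have narrower ranges.

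Counted over the 10 genes, 5 had non-overlapping groups in the Notch2KO response (28.3% of all genes), and 5 had an unadjusted p below 0.05 there (1994 of all 19938 genes). The WT response also gave 5 (33.5% of all genes), the untreated genotypes 7 (48.8%) and the genotypes after SRBC 2 (20.3%). In the WT response 3.79% of all genes passed (1.82% as rises and 1.97% as falls), and nothing is read from the members against that share, since the set was chosen there. Between genotypes after SRBC limma called 0 of 10 (5.32% of all genes, 3.36% higher and 1.96% lower in Notch2KO), with Per3 and Cry1 at an unadjusted p below 0.05 (3478 of all genes). For the difference of the responses it called 0 of 10 (0.0201% of all genes, 0.01% in each direction). Of the members other than Ciart, Nr1d1 alone had an unadjusted p below 0.05 there (1289 of all genes). Where a count uses WT arrays, Ciart's part in it is a description. The median difference of the members was -0.13 in the Notch2KO response and -0.24 between the genotypes untreated, beside 0.03 and -0.02 over all genes.

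Of 19 other genes of the pathway 16 were measured with 1 symbol. In Notch2KO cells limma called 0 of the 16 after SRBC (0.306% of all genes), and it called 0 between untreated genotypes (5.11%), while 3 rose in the WT response (1.82%). Rora, a ROR receptor that activates Arntl, had 7.17, 7.64 and 7.36 in WT SRBC, against 5.75 and 5.91 in WT untreated (1.57 ± 0.21, limma adjusted p = 0.00277). Nfil3, the repressor that competes with DBP and TEF for D-boxes and is also a factor of dendritic cell development, rose by 1.28 ± 0.21 (limma adjusted p = 0.00658), and Usp2, a deubiquitinase with rhythmic expression, by 1.10 ± 0.24 (limma adjusted p = 0.0299).

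In Notch2KO the same genes gave 0.70 ± 0.21 for Rora, 0.52 ± 0.21 for Nfil3 and 0.46 ± 0.24 for Usp2 (limma adjusted p = 0.244, 0.417 and 0.577). The difference of the responses did not pass for any of these 3 (limma adjusted p = 0.607, 0.684 and 0.834). After SRBC Rora was lower in Notch2KO, with 6.27, 6.64 and 6.80 against 7.17, 7.64 and 7.36 in WT (-0.82 ± 0.19, limma adjusted p = 0.0282). It was the 1 pathway gene of 16 called there, a share close to the 5.32% of all genes called. The core activators gave small values. Arntl differed by -0.12 ± 0.15 in the Notch2KO response and -0.30 ± 0.15 in the WT response (limma adjusted p = 0.859 and 0.362), and Clock by -0.01 ± 0.22 and -0.15 ± 0.22 (limma adjusted p = 0.995 and 0.796). Of 4 measured genes with ROR elements, a list that shares members with the pathway list, Nfil3 alone passed in the WT response and 0 passed in the Notch2KO response.

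**Figure D3:**
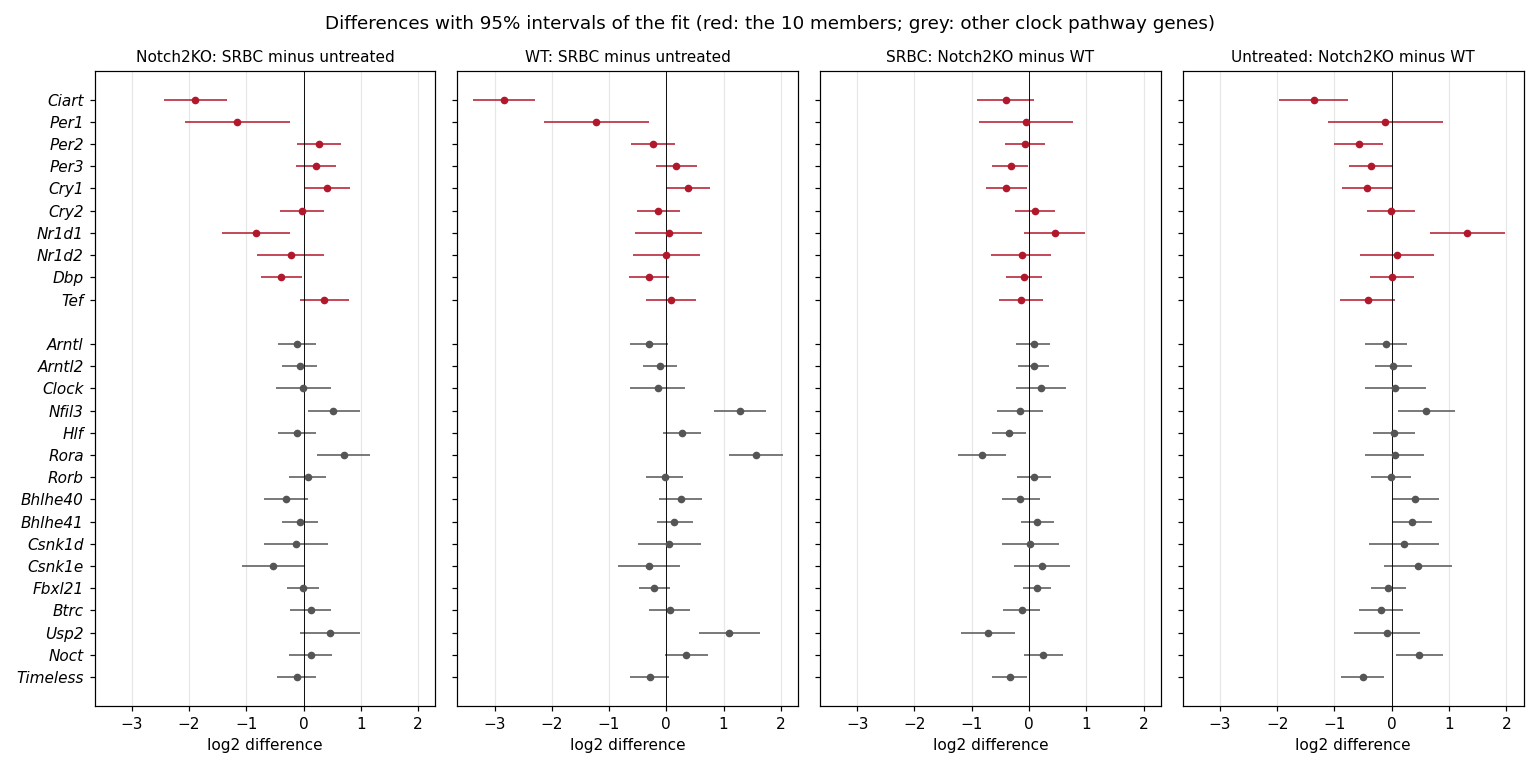
Log2 differences (x axis) with 95% intervals of the fit for the 10 clock genes (red) and 16 other pathway genes (grey) in 4 comparisons. Ciart lies farthest from 0 in both SRBC responses, Nr1d1 lies to the right of 0 between untreated genotypes, and Rora, Nfil3 and Usp2 lie to the right in the WT response.

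The genes whose profiles over the 10 arrays came nearest to Ciart were found by the root mean square (RMS) difference of log2 values after each gene's mean was removed. Dnal1, an axonemal dynein light chain, was nearest at 0.21 log2 units, where the Ciart profile itself had an RMS size of 1.27. Tcof1 (treacle, a nucleolar protein, 0.44), Sh2d3c (an adaptor, 0.47), the transcription factor Bcl11a (0.49) and the chaperone Dnajb1 (0.49) followed. The nearest other member was Per1, at rank 60 with 0.77, and the remaining 8 lay between 1.11 and 1.42. By this distance the genes nearest to Ciart's first probe set were not other clock genes. The distance counts the size of differences as well as their pattern. A gene with small differences therefore lies far from Ciart whatever its pattern, and likeness of pattern alone was not measured. These distances include the WT arrays on which Ciart was noticed.

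Dnal1 had 4.13, 4.17 and 3.32 in Notch2KO SRBC, against 5.51 and 5.56 in Notch2KO untreated, and 4.86, 4.13 and 4.03 in WT SRBC, against 6.95 and 7.42 in WT untreated. Nearest to Per1 (RMS size 0.74) were Snx30, Ppp1r21 and the immediate-early factor Jun, each at 0.22. Nearest to Nr1d1 (0.56) were the adenylate kinase Ak8 (0.15), the transcription factor Nfic (0.21) and the retinoid receptor Rxra (0.23). Dbp, with an RMS size of 0.21, had Fndc7, Znhit6 and Dffa within 0.09 to 0.11, where profiles this flat are matched by many genes.

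Lists of genes known to respond to tissue digestion had lower means after SRBC, as Ciart and Per1 did. The mean log2 of 16 heat shock genes was 8.42, 8.50 and 8.19 in Notch2KO SRBC, against 8.90 and 9.30 in Notch2KO untreated, and 7.72, 7.94 and 7.93 in WT SRBC, against 9.46 and 9.33 in WT untreated. The untreated arrays were thus highest for this list as for Ciart, though the SRBC arrays of WT were below those of Notch2KO, which Ciart's first probe set did not show. In the Notch2KO response, where 0.166% of all genes fell, 2 of the 16 fell and none rose. These were Hsph1 (-3.01 ± 0.25, limma adjusted p = 0.000945) and Dnajb1 (-1.76 ± 0.30, limma adjusted p = 0.0386). In the WT response, where 1.97% of all genes fell, 11 of the 16 fell, with Hsph1 (-4.69 ± 0.25) first.

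The mean of 24 immediate-early genes was 9.42, 9.16 and 8.63 in Notch2KO SRBC, against 9.69 and 9.72 in Notch2KO untreated, and 9.17, 8.76 and 8.79 in WT SRBC, against 9.71 and 9.65 in WT untreated. Notch2KO SRBC 3, the lowest array for this list, was also the lowest for Per1, and WT SRBC 1 was the highest of its group for both. Of these genes Ier2 (-1.50 ± 0.25) and Zfp36 (-0.96 ± 0.17) fell in the Notch2KO response (limma adjusted p = 0.0385 and 0.0462) and none rose. In the WT response 4 of the 24 fell, Egr1 (-2.76 ± 0.44) by the most, and Dusp5, a MAP kinase phosphatase, rose (0.98 ± 0.18, limma adjusted p = 0.0127). Of all genes 0.166% fell in the Notch2KO response and 1.97% in the WT response. With the immediate-early mean of each array as a covariate, the Notch2KO difference was -1.40 for Ciart (limma adjusted p = 0.101) and 0.15 for Per1 (limma adjusted p = 0.856). With the heat shock mean in its place they were -2.02 and -0.67 (limma adjusted p = 0.897 and 0.999). Both covariates were added after the data were seen. Both lie lower on all SRBC arrays than on the untreated arrays of the same genotype, and the immediate-early mean also varies widely among SRBC arrays. These fits therefore cannot separate either covariate from the SRBC difference. With the heat shock mean Ciart's difference was -2.02, beside -1.89 with no covariate, so its lost call does not reflect a smaller difference. The part of digestion stress in these values was not tested.

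**Figure D4:**
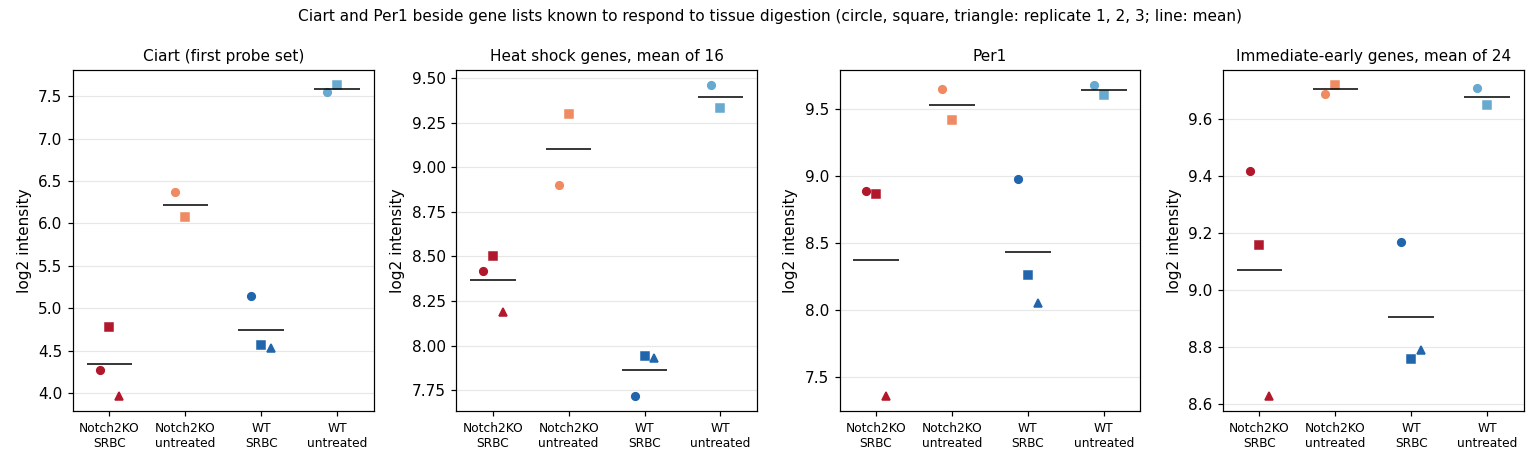
Log2 intensity (y axes, each with its own scale) of Ciart, the mean of 16 heat shock genes, Per1 and the mean of 24 immediate-early genes on each array by group; symbols mark replicates 1 to 3 and lines the group means. Untreated arrays are above SRBC arrays within each genotype in all 4 panels, and Notch2KO SRBC 3 is the lowest array for Per1 and for the immediate-early mean.

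The last lists hold genes induced by glucocorticoids or by cAMP and CREB, signals that are also known to induce Per1. Of 14 glucocorticoid-induced genes none passed in the Notch2KO response (median -0.07). Between untreated genotypes 3 were higher in Notch2KO and none lower, the metallothioneins Mt1 (1.91 ± 0.27, limma adjusted p = 0.00147) and Mt2 (2.87 ± 0.49, limma adjusted p = 0.00498), which metals also induce, and the Krüppel-like factor Klf9 (1.34 ± 0.20, limma adjusted p = 0.00237). Of all genes 2.95% were higher and 2.16% lower there. Of 9 genes induced by cAMP and CREB (median 0.26), Crem rose in the Notch2KO response (1.73 ± 0.31, limma adjusted p = 0.0456), where 0.14% of all genes rose. The other genes of this list did not pass. Among them Sik1 (-1.12 ± 0.37), Nr4a1 (-1.07 ± 0.55) and Fosb (-1.04 ± 0.63) had lower means, as Per1 did, and the rest had higher means. The part of these signals in the values of Per1 was not tested.

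On these arrays Notch2 itself averaged 8.27 in Notch2KO untreated and 8.13 in WT untreated (0.14 ± 0.26, limma adjusted p = 0.915), a signal that does not check the deletion, whose extent the labels do not give. Its target Hes1 was lower in untreated Notch2KO (-2.60 ± 0.26, limma adjusted p = 0.000143), as was Dtx1 (-2.41 ± 0.33, limma adjusted p = 0.00122). After SRBC Dtx1 was again lower in Notch2KO (-1.09 ± 0.27, limma adjusted p = 0.0403), but Hes1 did not pass (-0.09 ± 0.21, limma adjusted p = 0.892). Array medians lay between 29.5 and 31.7 in linear intensity, and WT SRBC 1 and Notch2KO SRBC 3 correlated least with their groups (r between 0.971 and 0.979, against 0.988 to 0.991 for the other pairs, over all genes). Without these 2 arrays, a setting added after the data were seen, Ciart's Notch2KO difference was -1.70 (limma adjusted p = 0.00325), the responses of the genotypes differed by 1.34 for Ciart, and Per1 differed by -0.65 in the Notch2KO response (limma adjusted p = 0.0535), by -1.49 in the WT response and by 0.73 between genotypes after SRBC (limma adjusted p = 0.00858). Of 9 cDC2 markers 8 had a mean above the median of all genes. Between untreated genotypes 3 of the 9 were lower in Notch2KO (Clec4a4, Esam and Cd4, by -4.09 ± 0.35, -1.84 ± 0.33 and -1.03 ± 0.22), where 2.16% of all genes were lower. The other 6 did not pass, among them Itgam (0.69 ± 0.21), Itgax (0.34 ± 0.25) and Sirpa (0.18 ± 0.20) with positive differences.

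Markers of other cells moved with genotype and, in WT, with SRBC. All 5 measured monocyte markers and 6 of 9 macrophage markers were higher in untreated Notch2KO, beside the higher Nr1d1. Of all genes 2.95% were higher and 2.16% lower in Notch2KO in that comparison. The other 3 macrophage markers did not pass, Spic (1.30 ± 0.47) and Cd5l (1.25 ± 0.43) with positive differences and Adgre1 (-0.83 ± 0.37) with a negative one. The summed intensity of the monocyte markers was 9320 to 10800 in Notch2KO untreated, against 1260 to 1540 in WT untreated, and that of the macrophage markers 1950 to 2590 against 729 to 801. In the WT response 1.82% of all genes rose and 1.97% fell. There, beside the lower Ciart, 3 of 9 macrophage markers rose, Vcam1, C1qc and Spic (summed intensity of the list 1390 to 1920 in WT SRBC, against 729 to 801 in WT untreated). Of 6 neutrophil markers 1 rose, S100a8 (2.85 ± 0.46), and 5 did not pass. Of 9 cDC2 markers 2 fell, Itgam (-1.44 ± 0.19) and Cd4 (-1.32 ± 0.20), and 7 did not pass, among them Zbtb46 with a positive difference (0.61 ± 0.20). The cDC1 marker Xcr1 rose (1.09 ± 0.22) and Wdfy4 fell (-0.97 ± 0.20), with 4 not passing. In the Notch2KO response, where 0.306% of all genes passed, no monocyte, macrophage or cDC2 marker passed. For the remaining 7 cell types at most 3 markers each passed between untreated genotypes, and 1 of all of them, S100a8 (3.07 ± 0.46), in the Notch2KO response. The 3 were of the 6 cDC1 markers. Of these Clec9a (3.00 ± 0.50) and Cadm1 (1.72 ± 0.22) were higher in untreated Notch2KO, and Wdfy4 was lower (-2.01 ± 0.22). The part of these cells in the differences of Nr1d1 and Ciart was not tested.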

How the data were processed

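Per the labels' protocols, total RNA of sorted cDC2 was labelled with biotin and hybridised to one-colour whole-transcript arrays. Each deposited value is a linear intensity that the authors had normalized between arrays; the sources used here do not name the method. The small number of arrays limits precision, and no detection p-value was used. From the deposited intensities log2 values were taken. Of 28853 probe sets 21789 had 1 gene symbol in the platform annotation, 1621 several and 5443 none; the brightest probe set by mean stood for each of 19938 genes, with no filter on dim genes (9 of the 10 members were above the median level). One limma fit over all 10 arrays, with a mean per group and a mean-variance trend (6 residual degrees of freedom), gave 5 comparisons, two-sided, adjusted by Benjamini-Hochberg over all genes. Named genes were the members, 3 Notch genes, up to 4 called genes with the smallest p of each list (and Arntl, Clock and Nfil3), and the genes with profiles nearest to Ciart (5), Per1, Nr1d1 and Dbp (3 each; clones, predicted genes, small RNAs and olfactory receptors left out). Cell type markers were named after their values were seen. The members and lists were chosen with earlier results of these data known. The fit was tested on simulated data. Replicate numbers are not stated to pair arrays, and deviations of same-numbered arrays correlated between -0.171 and 0.375. The software was limma 3.58.1 in R 4.3.3, with Python 3.11.15 (pandas 2.3.3, NumPy 2.4.6, matplotlib 3.10.9) for tables and plots.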

Additional observations from a re-analysis of the deposited data

How the results depend on the processing

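Counts that rest on Ciart's WT arrays or on the members' WT response are given as description. Leaving out each array in turn changed the number of members called to between 0 and 1 in the Notch2KO response (1 as reported), 0 and 2 between untreated genotypes (2), and 1 and 2 in the WT response (1, with Per1 as the second without Notch2KO SRBC 3), while between genotypes after SRBC and for the difference of responses it stayed at 0. A group left with 1 array was assumed to vary like the others. Averaging a gene's probe sets left 1 member called between untreated genotypes, since Ciart became -0.74. The replicate number as a block gave 1 member in the Notch2KO response, 2 between untreated genotypes and 0 in both other tested comparisons, and no member's call changed. The immediate-early covariate left 0 members in the Notch2KO response, and the heat shock covariate left 0 there, 0 between untreated genotypes and 0 in the WT response. With the heat shock covariate 0 of all 19938 genes were called in the WT response, so the count of members there says nothing about them. Ciart's WT difference was then -3.11, beside -2.84 with no covariate. Without WT SRBC 1 and Notch2KO SRBC 3 the count was 2 in the WT response, 1 between genotypes after SRBC (Per1, 0.73, the opposite sign to -0.05 with all arrays) and 1 for the difference of responses (Ciart, 1.34, a description); the cause was not tested. Setting aside those added after the data were seen, every alternative kept Ciart lower in the Notch2KO response (-2.32 to -1.32, adjusted p 0.0013 to 0.211) and Nr1d1 higher in untreated Notch2KO (0.98 to 1.54, adjusted p 0.00291 to 0.213). The number called over all genes is given for every alternative, including those added after the data were seen. It ranged from 0 to 398 in the Notch2KO response (61 as reported), 418 to 1996 between untreated genotypes (1019), 119 to 2364 between genotypes after SRBC (1061), 0 to 2300 in the WT response (756) and 0 to 604 for the difference of responses (4). In the WT response both ends came from settings added after the data were seen. With 2 or 3 arrays a group, differences as small as those of most members were not resolved.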
